A study of Macaca fascicularis with 2 samples.

Results

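The 10 genes described here encode enzymes that build ceramide and turn it into sphingomyelin: SPTLC1, SPTLC2, KDSR, CERS1, CERS2, CERS4, CERS5, CERS6, DEGS1 and SGMS1. They were chosen by symbol as named enzymes of the pathway, and all 10 of them were matched among the 28162 genes of the files. The cynomolgus macaque, Macaca fascicularis, gave RNA of the gastrocnemius, a calf muscle. It was sequenced in 1 library labelled non-lean, on a high fat diet, and 1 labelled lean, on a chow diet. The study asked which genes differ in expression between obese and lean skeletal muscle. The sources used here give no age, sex, length of diet or number of animals behind a library. With 1 library per group no test between the groups was possible, so each difference compares these 2 libraries, has no replicate check and carries no p-value.

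Ceramide is the shared core of the sphingolipids, which are membrane lipids and signals. Serine palmitoyltransferase joins serine to palmitoyl-CoA, a reductase and a family of ceramide synthases carry the product to dihydroceramide, a desaturase makes ceramide, and sphingomyelin synthase moves a phosphocholine group onto it. Each ceramide synthase prefers acyl chains of certain lengths. In skeletal muscle the pathway is best known from work on lipid excess, in which ceramide interferes with insulin signalling through AKT.

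The non-lean library held 12732003 counts and the lean library 15983371. Genes with a mean CPM (counts per 1000000 counts of the library) of at least 1 over both libraries, after scaling by the trimmed mean of M-values (TMM), numbered 13703 and are called tested genes. All 10 enzymes were among them. Of the 10 skeletal muscle fibre markers, all were tested and none was at 0 counts, with a summed level of 159026 CPM in the non-lean and 215077 CPM in the lean library. Of these, 9 had intervals below 0 and 1 above, 0 were called in either direction, and the median log2 ratio was -0.38. Values in square brackets are 95% counting intervals of a log2 ratio, non-lean over lean, and cover counting error only. A call, higher or lower, needs a difference of 2-fold or more and an interval that does not hold 0.

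The first steps of the pathway and the desaturase differed between the libraries by less than counting error, while part of the ceramide synthase family and the sphingomyelin synthase were lower in the non-lean library. CERS1, CERS4 and SGMS1 were called lower, CERS2 was lower by a smaller ratio, and no enzyme was called higher. Thus 3 of the 10 enzymes were called lower, against 7.16% of all tested genes, and 0 of 10 higher, against 4.90%. The intervals of 4 enzymes lay below 0, against 28.8% of tested genes, and those of 0 lay above 0, against 25.7%. Among the 7416 tested genes whose summed count lay in the range of these enzymes, a set chosen after the values were seen, 8.17% were called lower and 4.79% higher, and 25.9% had intervals below 0 and 21.4% above. Of all 2-fold calls 40.7% were higher, and with total counts in place of TMM 56.0%, but the calls of these enzymes were the same 3 lower and 0 higher under both. The median log2 ratio of the 10 enzymes was -0.21 and that of all tested genes -0.01, with quartiles of -0.39 and 0.34. The share of called enzymes rests on few genes, and 1 of the 3, CERS1, shares its locus with another gene. CERS1 also reached the mean CPM of 1 only through the lean library, with 0 CPM in the non-lean and 8.67 CPM in the lean library. Without CERS1, 2 of 9 were called lower and the median was -0.12.

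**Figure D1:**
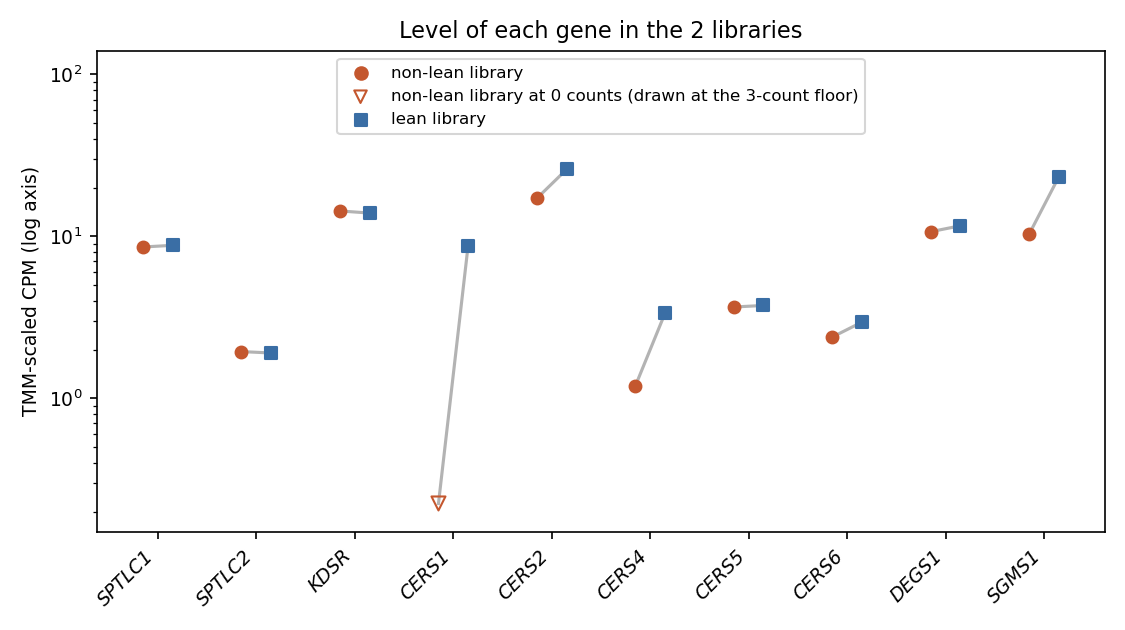
TMM-scaled CPM (log axis) of each of the 10 genes in the non-lean library (circles) and the lean library (squares), with 1 library per group. CERS1 had 0 counts in the non-lean library and is drawn at the floor of 3 counts, CERS4 and SGMS1 stand lower in the non-lean library, and the points of SPTLC1, SPTLC2, KDSR, CERS5 and DEGS1 lie close together.

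Serine palmitoyltransferase catalyses the first and rate-limiting step, and its SPTLC1 subunit pairs with the catalytic subunit SPTLC2. SPTLC1 had 115 counts in the non-lean and 134 in the lean library, or 8.60 and 8.81 CPM. SPTLC2 had 26 counts in the non-lean and 29 in the lean library, or 1.94 and 1.91 CPM. The 2 libraries were thus almost equal for both subunits. The log2 ratio of SPTLC1 was -0.03 [-0.41, 0.34] and that of SPTLC2 0.03 [-0.79, 0.84]. At this depth a difference of SPTLC2 of up to 1.79-fold higher or 1.73-fold lower lay within its interval, so a smaller difference was not detectable. The alternative catalytic subunit SPTLC3 had 3 counts in the non-lean and 0 in the lean library, too few for a ratio.

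KDSR reduces the ketone product of the first step to dihydrosphingosine. It had 192 counts in the non-lean and 212 in the lean library, or 14.4 and 13.9 CPM. These levels differed by less than the counting error, with a log2 ratio of 0.04 [-0.25, 0.33]. Model 1 of its 3 transcript models, numbered here in the order of the files, held most of the KDSR counts in both libraries, with a share of 93.2% in the non-lean library (88.7 to 96.3, a 95% Clopper-Pearson interval) and 92.5% in the lean library (88.0 to 95.6). The rest fell on model 2 in the non-lean library, at 12.93 estimated counts, and on model 3 in the lean library, at 15.9. Such shares rest on the authors' estimated division of reads among models, an error the intervals do not hold.

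DEGS1, the desaturase that turns dihydroceramide into ceramide, had 143 counts in the non-lean and 177 in the lean library, or 10.7 and 11.6 CPM. These levels differed by less than counting error, at -0.12 [-0.45, 0.20]. The gene has a single model in the files, so no division among its own models enters this value.

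The ceramide synthases attach the acyl chain, and the 5 members of the family measured here spread widely. CERS2, which prefers very long acyl chains, had 230 counts in the non-lean and 394 in the lean library, or 17.2 and 25.9 CPM. It was lower in the non-lean library, at -0.59 [-0.83, -0.35], short of the 2-fold call. Of all tested genes, 16.8% had a lower ratio than CERS2. Both models of the gene were lower, with 38.38 estimated counts in the non-lean and 84.43 in the lean library for model 1, and 191.61 and 309.57 for model 2. Model 2 made up 83.5% of the gene in the non-lean library (78.0 to 88.0) and 78.7% in the lean library (74.3 to 82.6), so the shares overlapped within counting error.

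CERS4, which uses long and very long acyl chains, had 16 counts in the non-lean and 51 in the lean library, or 1.20 and 3.35 CPM. The non-lean level was 2.74-fold lower, a log2 ratio of -1.46 [-2.40, -0.65], and 3.03% of tested genes had a lower ratio. The interval is wide, since the ratio rests on 67 counts in both libraries together. Of its 7 models, 2 carried counts in the non-lean library, model 5 with 5.6 and model 7 with 10.4 estimated counts. All 51 counts of the lean library lay on model 5. The leading model was therefore not the same in the libraries, at counts too low to separate a change of model from the estimation.

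CERS5 and CERS6 both prefer palmitoyl-CoA. CERS5 had 49 counts in the non-lean and 57 in the lean library, or 3.66 and 3.75 CPM, a log2 ratio of -0.03 [-0.61, 0.54]. CERS6 had 32 counts in the non-lean and 45 in the lean library, or 2.39 and 2.96 CPM, a log2 ratio of -0.30 [-1.01, 0.38]. Neither differed beyond counting error, although the interval of CERS6 reaches to 2.01-fold lower. The 4 models of CERS5 all carried counts in both libraries, and the largest, model 3, held 38.0% in the non-lean library (24.7 to 52.8) and 42.1% in the lean library (29.1 to 55.9). CERS6 counts lay wholly on 1 of its 2 models in both libraries.

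**Figure D2:**
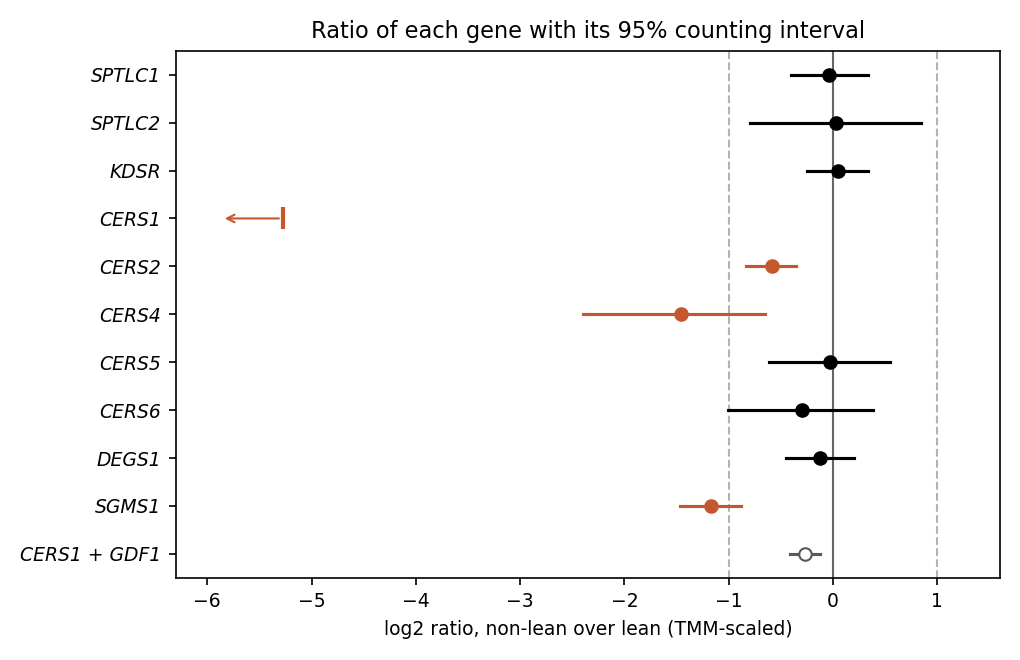
Log2 ratio (non-lean over lean) for each gene, with its 95% counting interval (1 library per group); dashed lines mark 2-fold, and intervals that lie below 0 are coloured. CERS2, CERS4 and SGMS1 lie below 0, the arrow of CERS1 marks a bound at -5.27, and the open circle shows the sum of CERS1 and GDF1 at -0.27.

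CERS1 is the ceramide synthase that prefers stearoyl-CoA and the member of the family best known from skeletal muscle and brain. Its single row held 0 counts in the non-lean and 132.13 estimated counts in the lean library, or 0 and 8.67 CPM. Set against a floor of 3 counts in the non-lean library, which is 0.224 CPM, it was 38.7-fold lower there. The counting interval of its log2 ratio reaches up to -4.95, a smaller difference than this floor gives. This value cannot be read as the level of CERS1 alone. In a RefSeq table of genes of the assembly T2T-MFA8v1.1, which may differ from the annotation behind the files, GDF1 lies wholly within the span of CERS1 and shares an end with it. GDF1 encodes a growth factor of the TGF-beta family, and in human and mouse it is known to be read from a transcript that also carries CERS1. The protocol names no strand-marking step, and the estimation divides reads of shared sequence between the rows.

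The GDF1 row held 682.99 estimated counts in the non-lean and 802.91 in the lean library, or 51.1 and 52.8 CPM, a log2 ratio of -0.05 [-0.20, 0.10]. It was thus nearly equal in the libraries while the CERS1 row was not. Both rows together held 683 counts in the non-lean and 935 in the lean library, or 51.1 and 61.4 CPM. The non-lean sum was 1.20-fold lower, at -0.27 [-0.41, -0.12], and with total counts in place of TMM its interval held 0, at -0.12 [-0.27, 0.02]. Of the sum, the CERS1 row took 0 of 683 counts in the non-lean library, which allows a share of up to 0.439%, and 14.1% in the lean library (11.9 to 16.5). The locus as a whole therefore differed far less than the CERS1 row, and the deposited values do not tell how its reads divide.

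**Figure D3:**
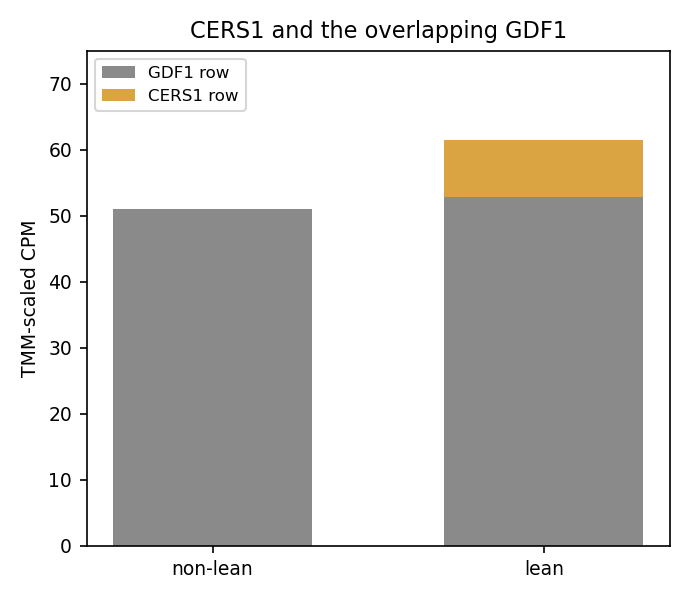
TMM-scaled CPM of the GDF1 row and the CERS1 row, stacked, in the non-lean and the lean library (1 library per group). The GDF1 part is 51.1 CPM in the non-lean and 52.8 CPM in the lean library, and only the lean bar has a CERS1 part, of 8.67 CPM.

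SGMS1, the sphingomyelin synthase of the Golgi, consumes ceramide and phosphatidylcholine. It had 139 counts in the non-lean and 356 in the lean library, or 10.4 and 23.4 CPM. The non-lean library was lower by 2.25-fold, at -1.17 [-1.46, -0.88], and 5.14% of tested genes had a lower ratio. The files list 11 models of SGMS1, of which 2 had at least 1 estimated count in the non-lean and 7 in the lean library. Model 5, the only model with at least 1 count in both, had 97.54 in the non-lean and 120.9 in the lean library, a log2 ratio of -0.12 [-0.52, 0.28] that held 0. Model 6 had 41.45 in the non-lean and 0 in the lean library. The models below 1 count in the non-lean library held 235.2 counts in the lean library, the largest of them, model 9, with 86.57. Splitting the models by the counts they hold is bound to place lower counts on those near 0, so these values describe the division and do not locate the difference.

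Fewer models in use in the non-lean library was seen in other genes too. Among the 1588 tested genes with at least 8 models, on average 3.82 models carried at least 1 count in the non-lean and 4.09 in the lean library. Fewer models were in use in the non-lean library for 41.0% of these genes and fewer in the lean library for 27.3%. Their median log2 ratio was -0.05, against 0.03 for the 4946 tested genes with 1 model. The protocol mentions both single-end and paired-end reads without saying which library had which, and the non-lean library is the shallower of the 2, while a model in use means at least 1 unscaled count. The part of depth and of read layout in the model counts and shares was not tested.

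**Figure D4:**
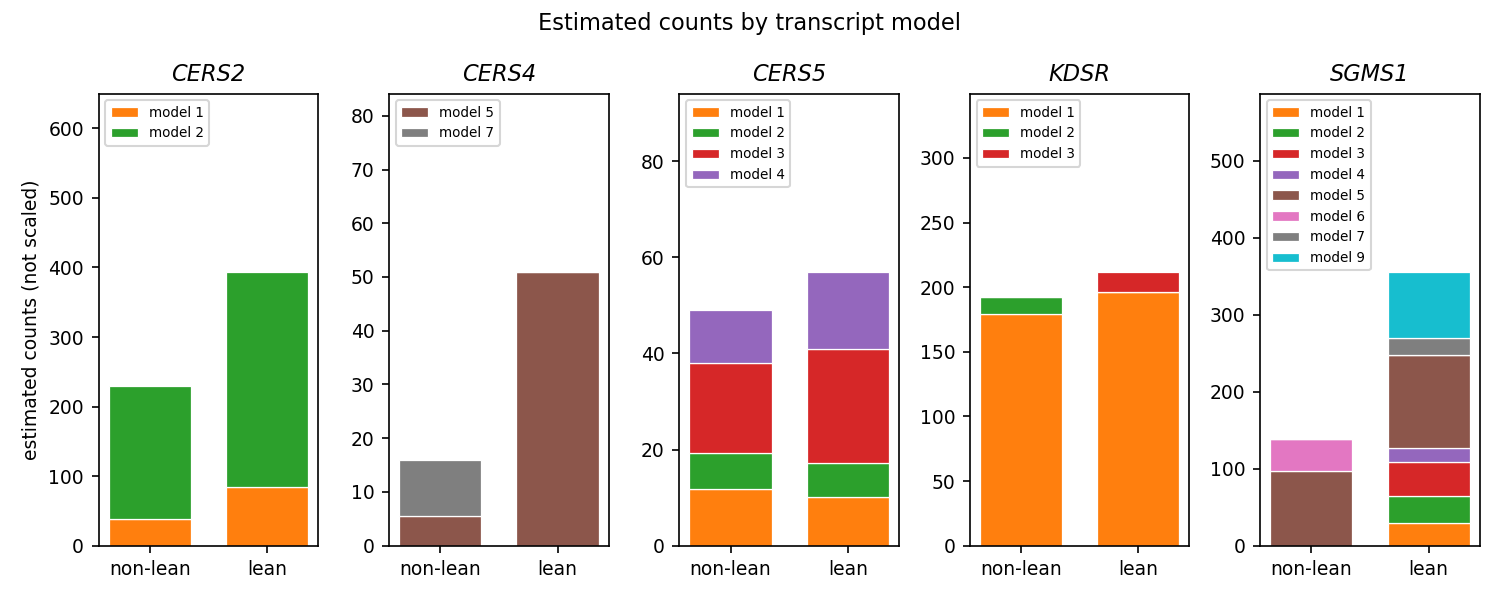
Estimated counts (not scaled) by transcript model in the non-lean and the lean library for CERS2, CERS4, CERS5, KDSR and SGMS1, with 1 library per group; models are numbered in the order of the files and those with at least 1 count are drawn. CERS2 and CERS5 keep all their models in both libraries, while SGMS1 has 2 models in the non-lean and 7 in the lean library.

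Ratios between genes within a library do not depend on how the libraries are scaled. Relative to SPTLC1, the obligate subunit of the first step, SGMS1 had 1.21 counts for each SPTLC1 count in the non-lean library and 2.66 in the lean library. The ratio of these ratios was 0.455, with a 95% interval of 0.327 to 0.633. For CERS2 it was 0.681 (0.4998 to 0.927) and for CERS4 0.367 (0.185 to 0.696). For SPTLC2, KDSR, CERS5, CERS6 and DEGS1 the ratio of ratios lay between 0.829 and 1.06, and each interval held 1. CERS1, with 0 counts in the non-lean library, was left out of these ratios. SPTLC1 as the common denominator was chosen after its near-equal level was seen, so these ratios restate each gene's own ratio on a scale free of library size, and all share its counting error.

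Regulators of serine palmitoyltransferase differed little. Of 6 listed genes, 4 were tested and 0 were called in either direction, with 1 interval above 0, 0 below and a median of -0.08. The small activating subunit SPTSSA had 140 counts in the non-lean and 181 in the lean library, at -0.18 [-0.51, 0.14]. The ORMDL proteins restrain the enzyme when ceramide is plentiful. ORMDL3 was at -0.05 [-0.26, 0.15], ORMDL1 at -0.10 [-0.39, 0.19], and ORMDL2, with 98 counts in the non-lean and 80 in the lean library, at 0.48 [0.04, 0.92].

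Among other genes of ceramide and sphingomyelin synthesis, SGMS2 was the lowest tested member. SGMS2, the sphingomyelin synthase of the plasma membrane, had 49 counts in the non-lean and 87 in the lean library. It was 1.55-fold lower, at -0.64 [-1.18, -0.12], and with total counts its interval reached 0.02. SAMD8, a related enzyme that makes ceramide phosphoethanolamine, had 894 and 1113 counts in the non-lean and lean libraries, at -0.13 [-0.26, -0.0012], and turned to 0.01 [-0.12, 0.14] with total counts. CERT1, which carries ceramide from the endoplasmic reticulum to the Golgi, was at 0.22 [-0.01, 0.46], with 314 counts in the non-lean and 306 in the lean library. Of these 3 tested genes, 0 were called in either direction, 2 intervals lay below 0 and 0 above. CERS3, which makes ceramides of the skin barrier and is named after its values were seen, had 15 counts in the non-lean and 6 in the lean library and fell below the expression filter.

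Of the 8 genes that use ceramide for other products, 0 were called in either direction, 1 interval lay below 0, 0 above, and 7 held 0. B4GALT5 and ST3GAL5, which build lactosylceramide and the ganglioside GM3, were at 0.06 [-0.12, 0.24] and 0.09 [-0.21, 0.39]. The ceramide 1-phosphate carrier CPTP was at 0.06 [-0.12, 0.23]. The glycolipid carrier GLTP was lower, with 94 counts in the non-lean and 159 in the lean library, at -0.57 [-0.96, -0.19].

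Intervals of the tested sphingomyelinases held 0, and the tested ceramidases had lower values in the non-lean library. The acid sphingomyelinase SMPD1 had 788 counts in the non-lean and 948 in the lean library, at -0.08 [-0.22, 0.06]. SMPD2 was at 0.11 [-0.31, 0.53] and SMPD3 at 0.79 [-0.27, 1.94], so all 3 tested sphingomyelinases held 0. Among ceramidases, which split ceramide into sphingosine and a fatty acid, ASAH1 of the lysosome had 520 counts in the non-lean and 822 in the lean library and was lower at -0.47 [-0.64, -0.31]. ACER2 of the Golgi had 266 counts in the non-lean and 486 in the lean library and was lower at -0.68 [-0.90, -0.46]. ACER3 was at -0.74 [-1.77, 0.18]. None of the 3 tested ceramidases reached a 2-fold call, and their median was -0.68.

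Genes of sphingosine 1-phosphate, the signal made from sphingosine, went both ways. Of 11 tested genes, 2 were called lower and 0 higher, with 4 intervals below 0, 2 above and a median of 0.00. The receptor S1PR3 had 12 counts in the non-lean and 43 in the lean library, at -1.61 [-2.71, -0.71]. The exporter SPNS2, best known from endothelium, had 47 counts in the non-lean and 120 in the lean library, at -1.16 [-1.68, -0.67]. The lipid phosphatases PLPP1 and PLPP3 stood on opposite sides, PLPP1 higher at 0.66 [0.57, 0.75] and PLPP3 lower at -0.60 [-0.74, -0.45]. ALDH3A2, which handles the aldehyde left by sphingosine 1-phosphate breakdown, was at 0.00 [-0.17, 0.17].

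In the lysosome, where glycosphingolipids are taken apart, 2 of 11 tested genes were called lower and 0 higher, with 5 intervals below 0 and 1 above. GLB1, a galactosidase, had 51 counts in the non-lean and 118 in the lean library, at -1.02 [-1.53, -0.54], and it lost the 2-fold call with total counts, at -0.87. GM2A, the activator of ganglioside breakdown, had 16 counts in the non-lean and 41 in the lean library, at -1.14 [-2.10, -0.31]. HEXA, an enzyme of ganglioside breakdown, was higher at 0.37 [0.13, 0.61]. PSAP, which gives rise to the saposins, was at -0.10 [-0.16, -0.05] and at 0.04 [-0.02, 0.10] with total counts, and GBA2 was at -0.01 [-0.18, 0.15].

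The acyl chains that ceramide synthases attach are lengthened by the elongation cycle. Of its 10 tested genes, 3 were called lower and 0 higher, with 5 intervals below 0, 1 above and a median of -0.16. ELOVL6, which elongates palmitoyl-CoA to stearoyl-CoA, had 11 counts in the non-lean and 75 in the lean library, 5.77-fold lower at -2.53 [-3.65, -1.66]. ELOVL5, an elongase of polyunsaturated chains, had 93 counts in the non-lean and 273 in the lean library, 2.57-fold lower at -1.36 [-1.72, -1.02]. The dehydratase HACD4 had 11 and 27 counts in the non-lean and lean libraries, at -1.07 [-2.27, -0.05], and its interval held 0 with total counts. HACD3, a related dehydratase named after its values were seen, had 29 counts in the non-lean and 65 in the lean library, at -0.96 [-1.66, -0.33], just short of the 2-fold call. Of the most abundant enzymes of the cycle, TECR was at 0.11 [0.03, 0.18], the muscle dehydratase HACD1 at -0.05 [-0.26, 0.16] and HSD17B12 at -0.27 [-0.50, -0.05], and with total counts the interval of HSD17B12 held 0.

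Among 12 tested genes of signalling linked to ceramide, 1 was called lower and 0 higher, with 4 intervals below 0 and 1 above. ADIPOQ, the fat cell hormone adiponectin, whose receptors have ceramidase activity, had 3 counts in the non-lean and 46 in the lean library, at -3.55 [-6.08, -2.11]. Its receptor ADIPOR1 was at -0.03 [-0.09, 0.02], and ADIPOR2 was higher at 0.32 [0.19, 0.45]. PPP2R1A, the scaffold of the phosphatase that ceramide activates, was at -0.07 [-0.16, 0.01], and AKT2 was lower at -0.41 [-0.49, -0.32]. AKT1, named after its values were seen, was at -0.07 [-0.17, 0.04]. Over all 85 listed genes, 83 were matched and 65 tested, with a median of -0.08. Of the tested ones 8 were called lower and 0 higher, against 7.16% and 4.90% of all tested genes. Of those called lower, ADIPOQ, ELOVL6, S1PR3 and HACD4 lay below 1 CPM in the non-lean library. They passed the filter only through the lean library, while CERS3, higher in the non-lean library, fell below it.

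**Figure D5:**
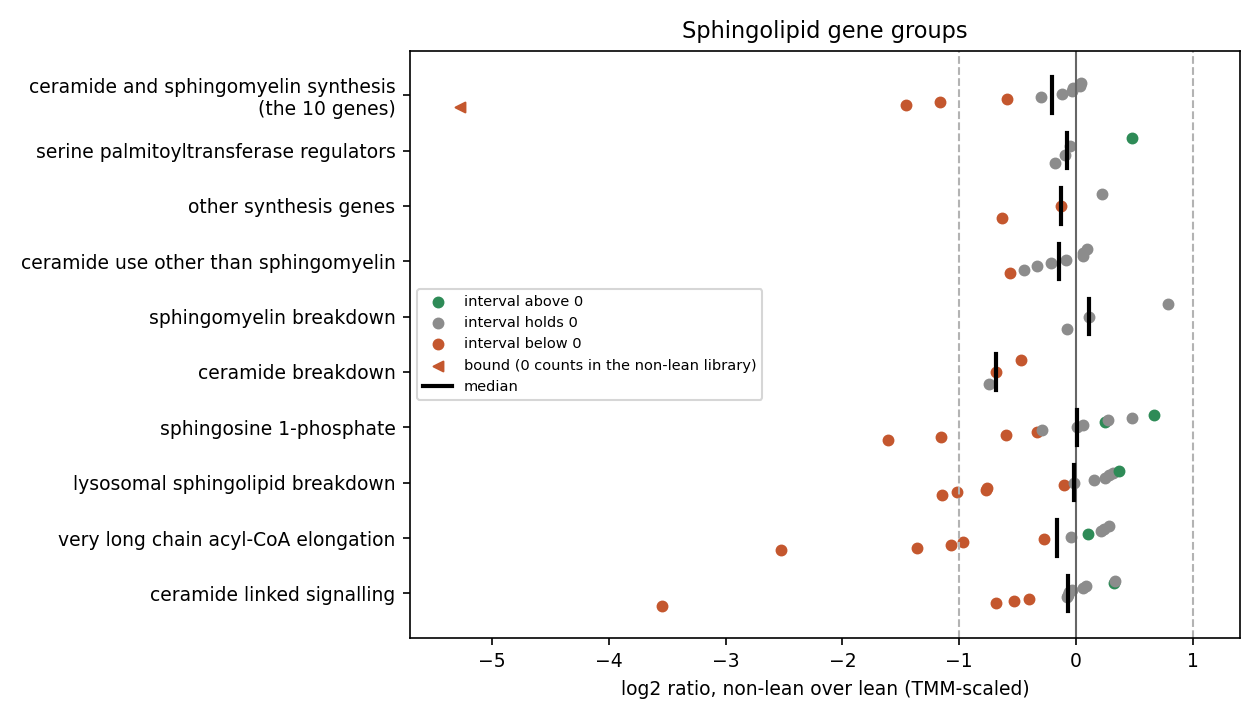
Log2 ratio (non-lean over lean) of every tested gene in the 10 enzymes and the 9 lists of other sphingolipid genes (1 library per group); bars mark medians, colours show where the 95% counting interval lies. The 10 enzymes have a median of -0.21 and ceramide breakdown one of -0.68, and no gene stands beyond 2-fold on the higher side.

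Markers of several other cell types were measured beside these genes. Of all tested genes, 7.16% were called lower and 4.90% higher. In the non-lean library 8 of 9 macrophage markers were called lower, with a summed level of 35.6 CPM in the non-lean and 120 CPM in the lean library, and 6 of 8 fibroblast markers, at 490 and 1089 CPM. Of 8 tested adipocyte markers 4 were called lower, although the summed level of the 9 matched was 1139 CPM in the non-lean and 1121 CPM in the lean library, carried by PLIN4, GPD1 and CFD, and 2 intervals lay above 0. Of the 7 endothelial and the 6 smooth muscle and pericyte markers 0 were called, with 5 and 3 intervals below 0 and 1 above in each, at 391 and 195 CPM in the non-lean and 539 and 218 CPM in the lean library. Schwann cell markers had 1 of 4 tested genes called lower, at 52.8 CPM in the non-lean and 101 CPM in the lean library. Of the lymphocyte markers 2 were tested, CD4 and PTPRC, and both were called lower. The summed level of all 7 listed was 4.49 CPM in the non-lean and 12.7 CPM in the lean library, of which CD4 gave 1.94 and 8.94 CPM. CD3E, CD3D and CD8A fell below the filter and their intervals held 0, with 11, 6 and 6 counts in the non-lean and 14, 7 and 7 in the lean library. MS4A1 and CD79A were at 0 in both libraries, and no other listed marker of any type was at 0. Of the markers called lower, ADIPOQ, CIDEC, CIDEA and PTPRC had 0.224, 0.972, 0.374 and 0.823 CPM in the non-lean library. These markers passed the filter only through the lean library. Fewer cells of a type and less RNA per cell cannot be told apart in bulk tissue, and the part of these cell types in the lower values of CERS2, CERS4, SGMS1 and the ceramidases was not tested.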

How the data were processed

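Gastrocnemius RNA was measured in 1 non-lean and 1 lean library, grouped by the labels. Per the file headers, the deposited files give expected counts per RefSeq transcript model; RSEM 1.3.3, STAR 2.7.8a and Trim Galore 0.6.6 are listed, without their roles, per the submitters' processing notes. No build or annotation is named in the sources used here. The authors' expected counts were added up by gene, then rounded. Older symbols and 24 symbols turned into dates were matched by accession or gene number to RefSeq assembly T2T-MFA8v1.1, used for names and overlaps only.

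Scaling used TMM in edgeR 4.0.16 under R 4.3.3, with factors of 1.05 (non-lean) and 0.952 (lean), and then Python 3.11.15 with scipy 1.17.1, numpy 2.4.6, pandas 2.3.3 and matplotlib 3.10.9. Log2 ratios used a prior count of 0.5. Intervals are exact Clopper-Pearson intervals of the binomial split, or exact conditional intervals for ratios of ratios, at 95%. The binomial intervals and the calls, but not the ratios of ratios, were tested on simulated data. The simulated counts held counting error alone (Poisson) at known library sizes. Scaling by TMM, division of reads among models and variation between animals were thus not covered. Reads carry no molecular identifiers and PCR copies are not independent, so intervals and the floor of 3 counts per library hold counting error alone. One count is 0.0748 CPM in the non-lean and 0.0657 CPM in the lean library. DESeq2 1.42.0 size factors, total counts, another prior count, other filters and call fold and unrounded sums were alternatives. Levels are not compared between genes, as no transcript lengths were used.

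The genes, lists and alternatives were chosen with earlier results of these data known. Named are all 10 enzymes, the overlapping GDF1 and, per list, the 3 most abundant tested genes, the extreme gene on each side by the interval bound nearest to 0, and each 2-fold call. The values of 1 listed gene are not reported here, although it counts in its list.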

Additional observations from a re-analysis of the deposited data

How the results depend on the processing

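Of 408 alternative values, 377 lay close to the main value. For ratios this meant within its counting interval, and for counts of genes within 1.5-fold. For medians the margin came from the widths of single-gene intervals, which is not the counting error of a median. Some of the 377 could not differ, since the call fold enters neither intervals nor medians, and the prior count enters no interval. Others of the 377 crossed 0, and with total counts SPTLC1 moved to 0.11, CERS5 to 0.11 and DEGS1 to 0.02. No enzyme changed direction where it was called, and CERS1 (as a bound), CERS4 and SGMS1 were called lower under total counts, DESeq2 size factors, a prior count of 2 and unrounded sums. Total counts raise the median of all tested genes by 0.14 and the share of 2-fold calls that are higher to 56.0%, against 40.7% with TMM. Alternatives added after the values were seen gave -0.27 for CERS1 summed with GDF1, and, over models with at least 1 count in both libraries, -2.80 for CERS4 and -0.12 for SGMS1. With a mean CPM of at least 5, the enzymes called lower numbered 1 and intervals below 0 numbered 2. That filter left 1 interval below 0 among other synthesis genes, 1 gene called lower each for sphingosine 1-phosphate, the lysosome and elongation, 0 for signalling, and 3 and 2 intervals below 0 for the lysosome and elongation. Without the filter, CERS3 gave 1 higher call and 1 interval above 0. At 1.5-fold, 1 other synthesis gene, 1 ceramidase, 4 lysosomal and 2 signalling genes were called lower and 1 sphingosine 1-phosphate gene higher. With total counts, intervals above 0 numbered 1 for other synthesis, 2 for ceramide use, 4 for the lysosome, 3 for elongation and 5 for signalling, intervals below 0 numbered 0 for other synthesis and 3 for elongation, 1 lysosomal gene was called lower, and the signalling median was 0.072. With DESeq2 size factors, intervals above 0 numbered 1 for sphingosine 1-phosphate and 0 for elongation, and with a prior count of 2, 1 lysosomal gene was called lower. These shifts follow from the construction of each alternative (fewer genes tested, another scale or another call fold). The values of CERS4 and SGMS1 by model keep models chosen by their own counts, which shifts them by construction too. Any other cause of those shifts was not tested. No paired analysis was possible because each group has 1 library. Depth limits the values of CERS4, CERS6 and SPTLC2 most, whose summed counts were 67, 77 and 55.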
